A study of Mus musculus with 44 samples.

Results

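A group of 10 nucleolar genes was followed across the lymphomas of Eµ-myc mice, chosen by symbol as genes of ribosome assembly: Polr1b, Fbl, Nop56, Nop58, Ddx21, Ncl, Npm1, Wdr12, Nop16 and Gnl3. These were 10 of 12393 genes with an annotated probe set, they were covered by 19 of 20380 such probe sets, and all 10 were among the 8712 genes whose signal rose above the middle of at least 1 array. The series held 43 arrays labelled lymphoma and 1 array labelled spleen, 1 array per sample, all of the genotype Eµ-myc, a Myc transgene under the immunoglobulin heavy chain enhancer that drives Myc in B lineage cells. The labels name no treatment, age or sex and no mouse without the transgene, and leave unsaid whether the lymphomas came from different animals and whether the spleen was diseased. Tissue pieces and pellets of dissociated cells were both used, and the labels do not say which array was which. P-values therefore measure the spread between these samples.

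The nucleolus is where RNA polymerase I copies the ribosomal RNA genes and where the transcript is modified, cut and packed with ribosomal proteins into the precursors of the small and the large ribosomal subunit. Small nucleolar ribonucleoproteins guide the modification, helicases and scaffold proteins drive the folding and the cuts, and further factors carry each precursor towards the cytoplasm. MYC is known as an activator of many of these genes and of RNA polymerase I itself, and the enlarged nucleolus is a classical feature of cells with high MYC. The question put to the arrays was how closely each of the 10 genes follows the level of Myc from one lymphoma to the next.

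Values are log2 signals of 1 probe set per gene, the one with the highest mean. The arrays lay on 2 scales, since the medians of the 36 lymphomas numbered D34 to D117 in their titles (the first set) were 6.22 to 6.46 and those of the 7 lymphomas D121 to D163 and of the spleen D168 (the second set) were 6.86 to 7.02. Each comparison therefore carried the set as a term or used values minus the mean of the lymphomas in that set, and a level in the first set must not be set against a level in the second. The B cell markers Cd79a, Cd79b, Ms4a1, Blnk and Cd22 had medians of 10.89 to 12.40 in the lymphomas, and 8 of 9 measured B cell markers lay above the array median in the first set, the exception being Pax5 at 6.15. The spleen had the red cell list at 11.49 on average against 4.89 to 5.19 in the lymphomas of its set, the neutrophil list at 12.73 against 5.58 to 9.58, and 8 of 9 B cell markers below the median of those lymphomas, such as Ms4a1 at 10.84 against 11.80, the exception being Blnk at 12.51 against 12.18. Myc ranged from 9.15 (D88) over a median of 10.54 to 11.44 (D43) in the first set and from 9.90 (D163) over 11.22 to 11.78 (D151) in the second, and the spleen stood at 10.09. The probe set does not separate transgenic from endogenous Myc. In bulk RNA, fewer cells of a type and less RNA per cell cannot be told apart.

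Start regions of 8 of the 10 genes were taken from RefSeq (build GRCm38.p6), as windows from 250 bases before to 50 bases after an annotated start, and Npm1 and Fbl were not analysed in this way. The regions of 3 genes are shown because they hold the features that the genes shared or lacked. Each is the stretch of 150 bases before the start that the window uses, read 5′ to 3′ on the strand of the gene, and capitals mark the GC box GGGCGG on either strand and, on either strand, the element CTACA, any 2 bases and TCCCA.
Polr1b, chr2:129100846-129100995, plus strand: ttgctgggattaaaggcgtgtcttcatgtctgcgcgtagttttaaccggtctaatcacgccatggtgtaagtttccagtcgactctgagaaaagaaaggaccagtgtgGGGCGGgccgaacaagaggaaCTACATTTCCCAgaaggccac
Nop16, chr13:54590075-54590224, minus strand: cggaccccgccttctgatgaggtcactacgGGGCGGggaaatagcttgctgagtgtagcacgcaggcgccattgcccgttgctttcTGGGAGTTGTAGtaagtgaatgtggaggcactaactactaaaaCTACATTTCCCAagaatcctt
Ncl, chr1:86359456-86359605, minus strand: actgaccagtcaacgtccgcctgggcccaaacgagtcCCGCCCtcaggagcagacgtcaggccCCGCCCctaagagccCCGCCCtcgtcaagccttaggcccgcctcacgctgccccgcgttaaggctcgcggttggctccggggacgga

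The canonical E-box CACGTG, the best known binding sequence of MYC, was present in the windows of 0 of the 8 genes. Over all 27025 genes with a window it was present in 8.09%. Among genes tested in these lymphomas the share was 13.9% for those rising with Myc, 9.54% for those falling and 11.8% for those not called. The variant E-box CACGCG, searched on both strands, was found in Nop16 and Ddx21, in both after the start, against 10.5% of all genes. Its shares were 25.2% of the genes rising with Myc, 13.4% of those falling and 19.8% of those not called. A GC box was found in all 8 genes, against 38.2% of all genes, with overlapping copies counted. Among tested genes it was common whatever the relation to Myc, in 70.5% of those rising, 65.2% of those falling and 68.9% of those not called. The CCAAT box was found in Nop56 alone, against 41.1% of all genes, and TATAAA in none of the 8, against 15.7%. The windows of the 8 genes had a median GC content of 61.0% against 52.7% over all 32851 windows.

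The element of CTACA, any 2 bases and TCCCA, known as part of the site of the factor ZNF143, was searched after the windows had been read. It was found in 3 of the 8 genes, against 1.78% of all genes. Among tested genes the share was 5.41% for those that rose with Myc, 2.53% for those that fell and 3.82% for those not called. Polr1b and Nop16 each carried it with its first base 21 bases before the start, Nop16 carried a further copy on the opposite strand 64 bases before the start, and Wdr12 carried it 61 bases before the innermost of its 3 annotated starts. The start of the window lies 26 bases inside the gene span given below for Polr1b and 23 bases inside it for Nop16, so that the copies 21 bases before it are themselves within those spans, and the innermost start of Wdr12 lies 593 bases inside its span. The copies are lined up here on the element, in capitals, each with 7 bases on either side.
Polr1b, chr2:129100968-129100993, plus strand: agaggaaCTACATTTCCCAgaaggcc
Nop16, chr13:54590077-54590102, minus strand: actaaaaCTACATTTCCCAagaatcc
Nop16, chr13:54590120-54590145, plus strand: tcacttaCTACAACTCCCAgaaagca
Wdr12, chr1:60097950-60097975, minus strand: ataaagcCTACAACTCCCAgtgttca
These are matches of letters in a window and not measured sites, and the absence of CACGTG from a window says nothing about binding elsewhere in the gene.

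All 10 genes were higher in lymphomas with more Myc. Over the 43 lymphomas the limma slope passed the test in 10 of 10 genes, all higher, where 26.4% of the 8711 genes tested were called higher and 16.9% lower. The slope is the log2 change of the gene per log2 unit of Myc, that is, per doubling, and its median was 0.33 over the 10 genes and 0.03 over all genes. Slopes were thus well below 1, so that a doubling of Myc went with 1.11-fold (Npm1) to 1.49-fold (Wdr12) of the gene. The T cell list fell with Myc in the same lymphomas, and values with it held are given after the single genes.

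**Figure D1:**
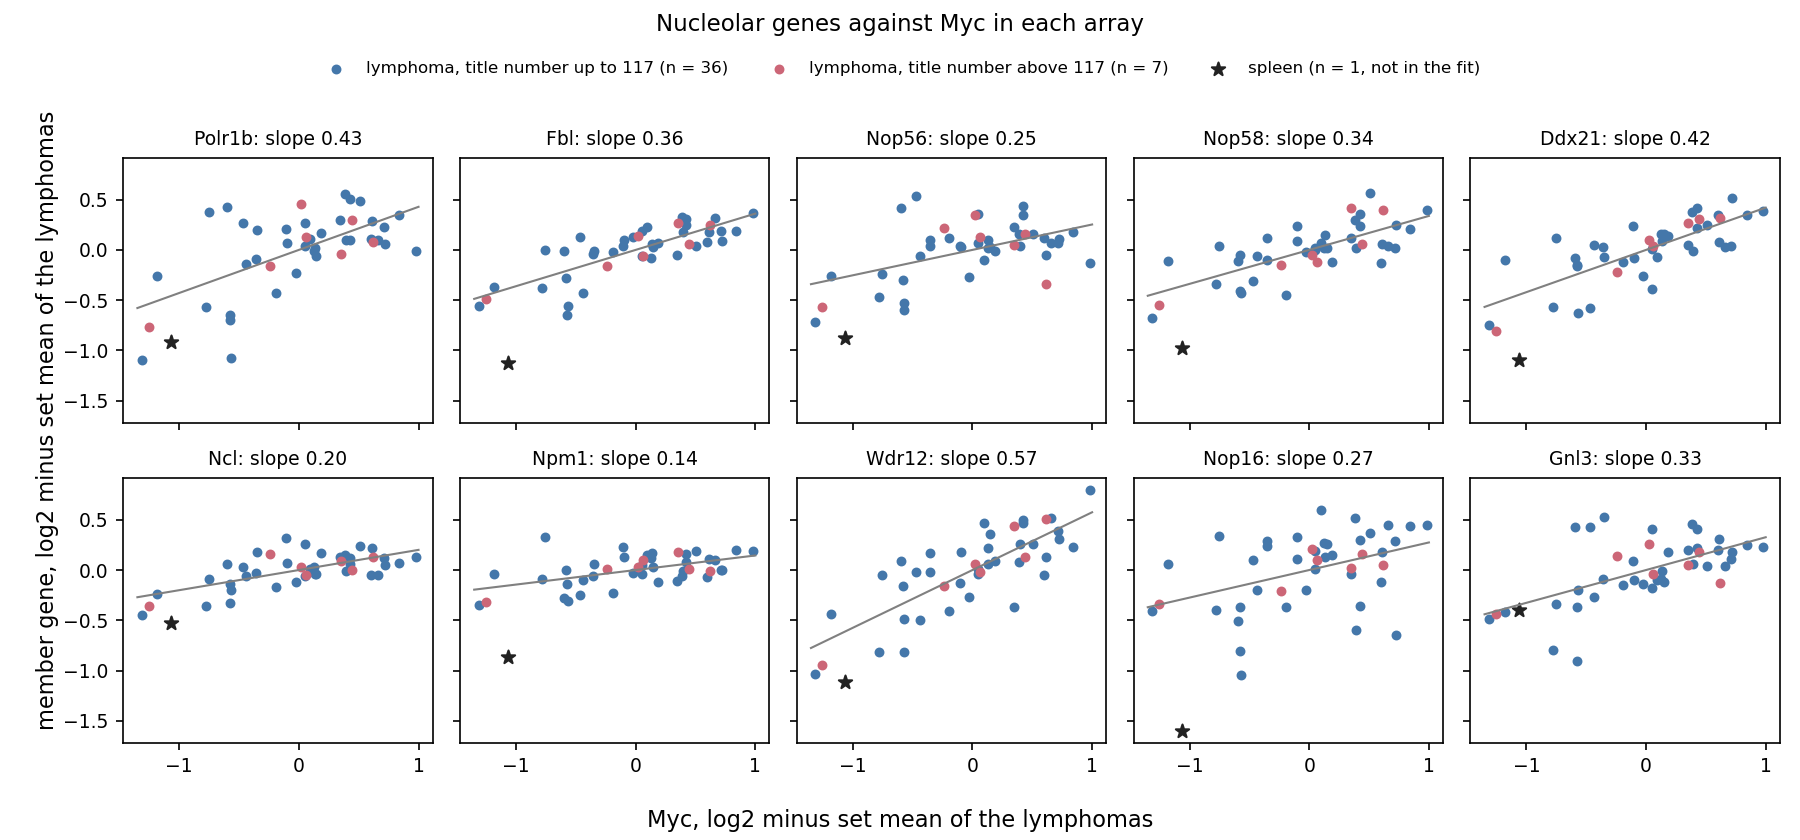
Each of the 10 genes (vertical axis) against Myc (horizontal axis), both as log2 minus the mean of the lymphomas in the same set; blue points are 36 and red points 7 lymphomas, the star is the spleen and the line is the slope fitted to the lymphomas. Fbl and Wdr12 hug their lines, Nop16 scatters widely, and the spleen lies below the line in each panel except that of Gnl3, where it lies close to it.

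Polr1b (chr2:129100970-129128060) encodes the second largest subunit of RNA polymerase I, the enzyme that makes the ribosomal RNA precursor. It ranged from 7.73 (D88) over a median of 8.92 to 9.38 (D98) in the first set and from 8.99 (D163) over 9.84 to 10.21 (D143) in the second. The low end held D88 and D59, at -1.09 and -1.08 from the set mean, where Myc was at -1.31 and -0.57. Its slope on Myc was 0.43 ± 0.09 (SE; limma, adjusted p = 0.000114). D75 and D84 did not follow: their Myc was at -0.75 and -0.60 from the set mean, while Polr1b was at 0.38 and 0.42.

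Fbl, Nop56 and Nop58 encode proteins of the box C/D small nucleolar ribonucleoproteins, in which fibrillarin is the methyltransferase and NOP56 and NOP58 form the core that holds the guide RNA. Fbl (chr7:28168893-28179269) ranged from 11.49 (D52) over 12.18 to 12.50 (D43) in the first set and from 12.65 (D163) over 13.20 to 13.41 (D135) in the second. The lymphoma with the most Myc in the first set, D43, was thus also the one with the most Fbl. The slope of 0.36 ± 0.04 (SE; limma, adjusted p = 6.83e-08) ranked 14 of 8711 genes by its moderated t, and Pearson r was 0.796. Nop58 (chr1:59684961-59711510) ranged from 11.13 (D88) over 11.83 to 12.37 (D86), and from 11.81 (D163) over 12.30 to 12.77 (D135), with a slope of 0.34 ± 0.05 (SE; limma, adjusted p = 1.78e-06).

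Nop56 (chr2:130274367-130279313) followed Myc less tightly than its partners, with r = 0.504 against 0.796 for Fbl and 0.728 for Nop58, a difference that was not tested. It ranged from 10.68 (D88) over 11.44 to 11.93 (D85) and from 11.72 (D163) over 12.42 to 12.64 (D143), and its slope was 0.25 ± 0.07 (SE; limma, adjusted p = 0.00245). The highest value of the first set belonged to D85, whose Myc was at -0.47 from the set mean, and in the second set D151, which had the most Myc, had Nop56 at -0.34. Nop56 and Nop58 correlated with each other at r = 0.455, less than either did with Fbl (0.662 and 0.733).

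Ddx21 (chr10:62580247-62602298), a nucleolar RNA helicase that acts in ribosomal RNA transcription and processing, ranged from 9.41 (D88) over 10.19 to 10.68 (D35) in the first set. In the second it ranged from 9.52 (D163) over 10.42 to 10.65 (D151). The lowest and the highest lymphoma of the second set were also those with the least and the most Myc. Its slope was 0.42 ± 0.06 (SE; limma, adjusted p = 4.19e-07), rank 39 of 8711, with r = 0.765.

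Ncl and Npm1 encode nucleolin and nucleophosmin, abundant nucleolar phosphoproteins that act as chaperones and scaffolds. Ncl (chr1:86344719-86359455) ranged from 12.25 (D88) over 12.72 to 13.02 (D57) and from 13.10 (D163) over 13.49 to 13.62 (D161), a total span of 1.70-fold after centring. Npm1 (chr11:33152498-33164142) ranged from 12.72 (D88) over 13.07 to 13.40 (D75) and from 13.42 (D163) over 13.75 to 13.91 (D135), a span of 1.60-fold. They had the narrowest spans of the 10 genes and the shallowest slopes, 0.20 ± 0.04 (SE; adjusted p = 2.01e-05) for Ncl and 0.14 ± 0.04 (SE; adjusted p = 0.00162) for Npm1 in limma. D75, the lymphoma with the most Npm1 in its set, had Myc at -0.75 from the set mean.

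Wdr12 (chr1:60071361-60098500) encodes a subunit of the PeBoW complex, which is needed to process the large subunit precursor. It had the steepest slope of the 10 genes, 0.57 ± 0.07 (SE; limma, adjusted p = 6.83e-08), and ranked 15 of 8711 genes, with r = 0.795. Its values ran from 9.01 (D88) over 10.11 to 10.83 (D43) in the first set and from 9.90 (D163) over 10.91 to 11.36 (D151) in the second. In both sets the lymphoma with the least Myc thus had the least Wdr12 and the one with the most Myc had the most. The span after centring was 3.55-fold, the widest of the 10.

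Nop16 (chr13:54584191-54590097), a further factor of large subunit assembly, had the lowest Pearson r with Myc of the 10 genes, whereas by Spearman rho Nop56 was lowest (0.364 against 0.422 for Nop16). It ranged from 8.21 (D59) over 9.38 to 9.86 (D72) in the first set and from 9.81 (D163) over 10.19 to 10.36 (D143) in the second. Its slope of 0.27 ± 0.09 (SE) passed the limma test at an adjusted p of 0.0163, with r = 0.414. D35, D80 and D107 had Myc at 0.72, 0.39 and 0.42 from the set mean and Nop16 at -0.65, -0.60 and -0.36. Gnl3 (chr14:31012433-31019131) encodes nucleostemin, a nucleolar GTP-binding protein known from stem and tumour cells, and ranged from 10.19 (D52) over 11.13 to 11.62 (D56) and from 11.35 (D163) over 11.83 to 12.05 (D143). Its slope was 0.33 ± 0.07 (SE; limma, adjusted p = 0.000295) and its r was 0.582.

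The lymphomas at the low end were few and mostly the same. In the second set D163 was lowest for 10 of 10 genes, and in the first set D88 was lowest for 7, D52 for 2 (Fbl and Gnl3) and D59 for 1 (Nop16). D88 and D163 had the least Myc of their sets, and D46, D52, D59, D88 and D163 were below the set mean in all 10 genes. The same 5 lymphomas also had macrophage scores of 1.38, 2.12, 3.22, 0.81 and 2.54 and T cell scores of 2.14, 0.78, 0.38, 1.56 and 1.57 above the set mean. No lymphoma had the highest value in as many genes, the most being 4 for D143 in the second set, in Nop56, Nop16, Polr1b and Gnl3. The share of all genes lowest, highest or below the set mean in a given lymphoma was not counted. These counts therefore have no background beside them.

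Tightness was measured by the correlation with Myc over the 43 lymphomas, with Myc permuted 100000 times within the sets (two-sided) and adjusted over all 8711 genes. Pearson r was 0.414 (Nop16) to 0.796 (Fbl), and 10 of 10 genes passed with a positive r, against 26.6% of all genes. Spearman rho was 0.364 (Nop56) to 0.777 (Wdr12), with adjusted permutation p-values of up to 0.048, and 10 of 10 passed, against 23.1% of all genes. The smallest raw p that this test can give, 1e-05, was reached by Ncl, Fbl, Nop58, Wdr12 and Ddx21 for r. Without D88 and D163, the lymphomas farthest from the median Myc, r was 0.337 (Nop56) to 0.737 (Fbl). Npm1, Nop56 and Nop16 then missed the threshold in the permutation test, with adjusted p-values of 0.0601, 0.087 and 0.076, where 18.1% of all genes passed with a positive r. They did so in limma too, where 7 of 10 genes passed, against 17.8% of all genes called higher.

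Within the sets the relation had the same direction. Over the 36 lymphomas of the first set r was 0.391 (Nop16) to 0.771 (Fbl), and 10 of 10 genes passed the permutation test, against 22.2% of all genes with a positive r. Over the 7 lymphomas of the second set r was 0.452 (Nop56) to 0.990 (Ddx21), and 0 of 10 passed the exact permutation test after adjustment, where 0% of all genes passed, while Fbl, Nop58, Nop16, Wdr12 and Ddx21 had raw exact p-values of 0.000595 to 0.031. The slope itself did not differ detectably between the sets: limma called 0 of 10 genes, with 0 of 10 at an unadjusted p under 0.05, where 0.161% of all genes were called lower and 0% higher in the second set. The differences in slope ran from -0.12 ± 0.19 (Gnl3) to 0.26 ± 0.15 (Ddx21, SE), so that a difference of the size of the slopes themselves lay within the 95% interval of several genes. A bend in the relation was not called for any of the 10 either (0 of 10 by limma, 2 of 10 at an unadjusted p under 0.05, against 1.03% of all genes called bent upwards and 0.597% downwards). All 10 estimates of the bend were negative, the largest being -0.30 ± 0.09 for Nop56 (SE; adjusted p = 0.085), but 5 of them turned positive without D88 and D163.

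Several genes were read by further probe sets, which gave another view of the same RNA. All 19 probe sets of the 10 genes had a positive slope on Myc. The share of all probe sets called higher was not counted, while by gene 26.4% were called higher. Of the 19 probe sets, 17 passed limma when all probe sets were tested. The exceptions were the second probe set of Npm1, at 0.05 ± 0.02 (SE; adjusted p = 0.0697), and that of Nop16, at 0.10 ± 0.07 (SE; adjusted p = 0.324), whose mean level of 5.89 lay below the array median. For Wdr12 the second probe set gave 0.76 ± 0.11, for Fbl 0.41 ± 0.05 and for Nop56 0.26 ± 0.05 (SE). Ncl had 4 probe sets, with slopes of 0.15 to 0.41, so that its shallow slope above was that of its brightest probe set.

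Marker lists of other cell types varied together with Myc, and bulk RNA does not show which cells that RNA came from. The mean of 12 T cell markers, 11 of which fell with Myc, had r = -0.653 with Myc (adjusted permutation p = 4.33e-05 over 13 lists) and ranged from -1.31 to 2.14 around the set mean. The mean of 13 macrophage markers, 7 of which fell with Myc, had r = -0.435 (adjusted permutation p = 0.00633), and its range was -1.36 to 3.22. For the macrophage list Spearman rho was -0.288 with an adjusted permutation p of 0.0759. The mean of 9 plasma cell markers, 7 of which fell with Myc, had r = -0.735, whereas the B cell list had r = 0.193 and the stromal list -0.011. The mean of the 10 nucleolar genes itself had r = -0.657 with the T cell score and -0.739 with the macrophage score, given as a description.

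With the T cell and macrophage scores in the limma fit, 4 of 10 genes still rose with Myc, against 4.84% of all genes: Wdr12 (0.36 ± 0.08), Ddx21 (0.32 ± 0.08), Fbl (0.23 ± 0.05) and Nop58 (0.22 ± 0.06, SE), with adjusted p-values of 0.00694, 0.00859, 0.00458 and 0.0314. The slopes of the other 6 stayed positive, at 0.06 (Npm1) to 0.20 (Polr1b), with adjusted p-values of 0.126 to 0.487. In that fit the slope on the macrophage score was -0.23 ± 0.04 for Polr1b, -0.21 ± 0.05 for Nop16, -0.16 ± 0.03 for Nop56 and -0.15 ± 0.04 for Gnl3 (SE), all past the threshold, as were those of Fbl and Ncl. For Ddx21 it was -0.03 ± 0.03 (SE; adjusted p = 0.592). The slope on the T cell score passed for 0 of 10 genes by limma, with 2 of 10 (Fbl and Wdr12) at an unadjusted p under 0.05. The share of all genes called on either score was not counted, so these calls have no background beside them. With one score at a time, 6 of 10 genes rose with Myc with the T cell score, against 8.28% of all genes called higher. The count was 8 with the macrophage score, against 17.5%. It was 8 with the plasma cell score, against 9% of all genes, and 10 with the B cell score, against 26.1%. The part of these lists in the relation to Myc was not tested beyond these fits.

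Growth and division genes also varied together. The mean of 22 G2/M genes had r = 0.472 with Myc (adjusted permutation p = 0.00263) and, as a description, 0.719 with the mean of the 10 genes. With this score held, 7 of 10 genes rose with Myc in limma, against 16% of all genes. The largest slopes were those of Wdr12 (0.48 ± 0.07), Ddx21 (0.35 ± 0.06) and Fbl (0.32 ± 0.05, SE), and those that missed the threshold were Npm1 (0.08 ± 0.04), Nop56 (0.16 ± 0.07) and Nop16 (0.15 ± 0.10), with adjusted p-values of 0.0954, 0.0901 and 0.269. Seen from the other side, with Myc held, 6 of 10 genes rose with the G2/M score, against 14.5% of all genes called higher and 7.01% lower: Polr1b, Wdr12, Nop56, Nop58, Npm1 and Ncl. Polr1b had the steepest such slope, 0.75 ± 0.15 per log2 unit of the score (SE; limma, adjusted p = 0.00035), followed by Nop16 at 0.50 ± 0.19 (SE). Fbl had the lowest, 0.17 ± 0.09 (SE; limma, adjusted p = 0.169), and differences between the genes were not tested.

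**Figure D2:**
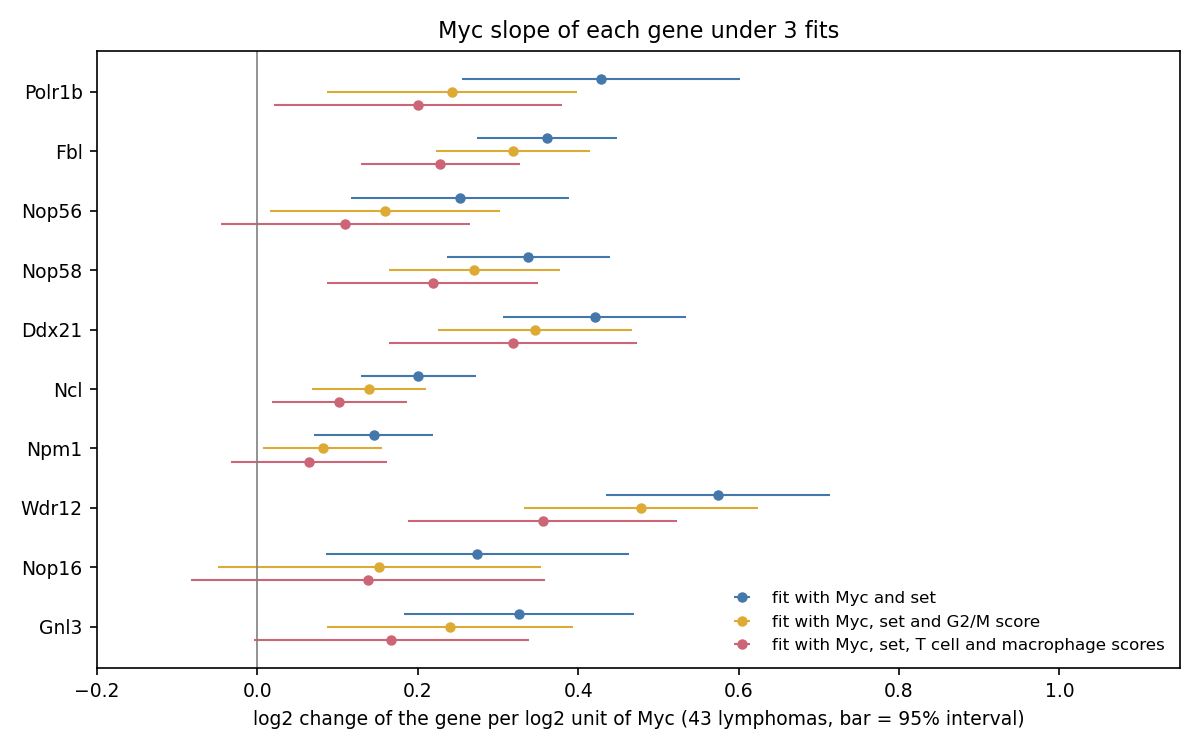
Slope of each gene on Myc (horizontal axis, log2 per log2 unit, 43 lymphomas) with its 95% interval, from the fit with Myc and set (blue), with the G2/M score added (yellow) and with both other-cell scores, T cell and macrophage, added (red). For all 10 genes the slope shrinks in both further fits, and for Npm1, Nop56, Nop16 and Gnl3 the interval of the last fit includes 0.

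Cdkn2a, which encodes p16Ink4a and p19Arf, was examined because p19Arf binds nucleophosmin in the nucleolus and slows ribosomal RNA processing. It varied far more than any of the 10 genes, from 3.97 (D47) over 7.59 to 11.46 (D43) in the first set and from 5.91 (D133) over 7.32 to 12.13 (D151) in the second. None of the 10 genes passed limma on Cdkn2a (0 of 10, 1 of 10 at an unadjusted p under 0.05, against 3.31% of all genes called higher and 1.48% lower). The slopes ran from -0.02 ± 0.02 (Gnl3) to 0.04 ± 0.03 (Wdr12) log2 per log2 unit of Cdkn2a, Npm1 having 0.02 ± 0.01 (SE) with a 95% interval of -0.01 to 0.04. Mycn, the paralogue of Myc, stayed between 6.51 and 7.27 in the first set and between 7.38 and 7.50 in the second.

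The 10 genes also varied with one another. Over the 45 pairs Pearson r of the centred values was 0.212 to 0.881 with a median of 0.649, which is a description over 43 lymphomas that share Myc and the makeup of the samples. Wdr12 and Fbl were the closest pair (0.881), followed by Nop58 and Ddx21, while Npm1 and Gnl3 were the least alike (0.212). After the slope on Myc was removed the median was 0.370 and 2 of the 45 pairs were negative, and the closest pairs were then Nop56 with Polr1b and Nop56 with Gnl3 (both 0.72). With the G2/M slope removed as well the median was 0.228, and with Myc, T cell and macrophage slopes removed it was 0.213, with 6 and 9 negative pairs.

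**Figure D3:**
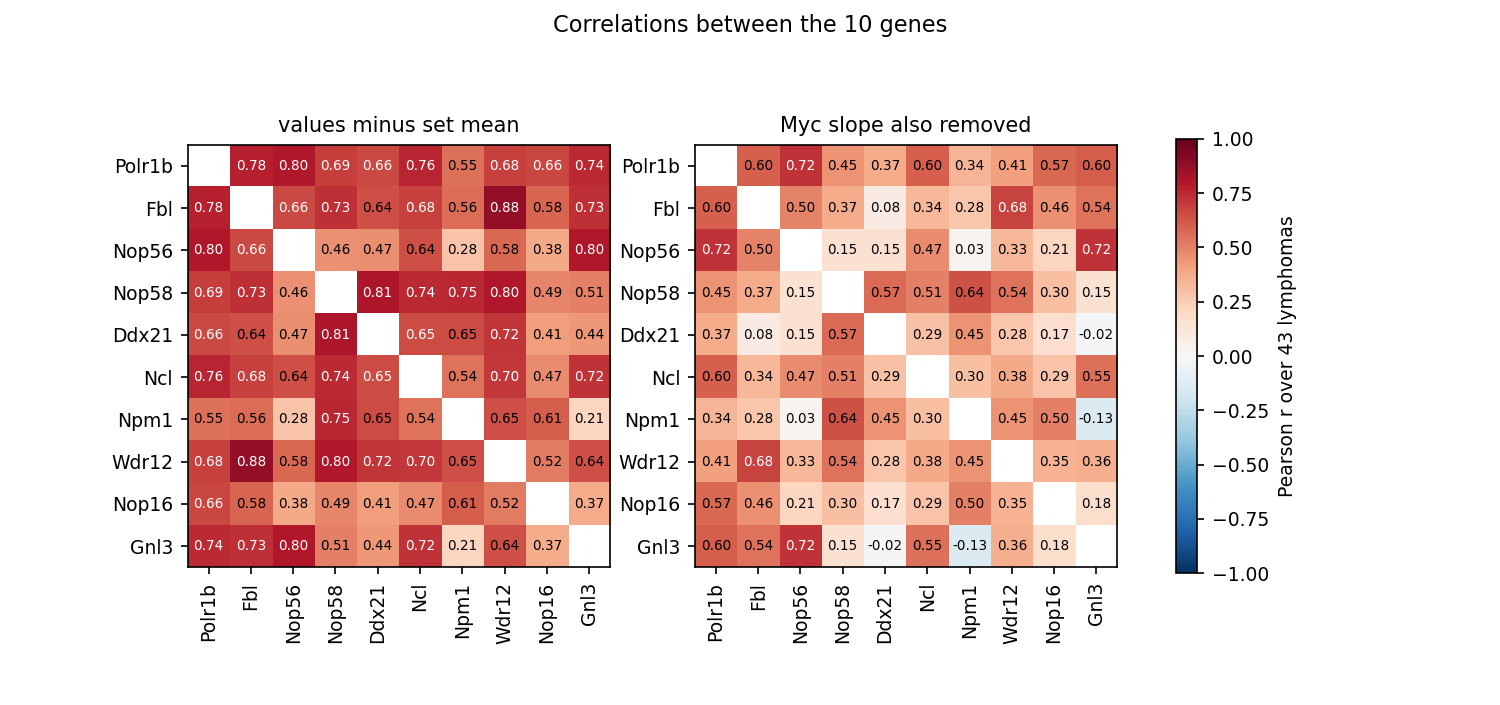
Pearson r between each pair of the 10 genes over 43 lymphomas, from values minus the set mean (left) and with the slope on Myc removed as well (right); colour and printed number both give r. On the left all 45 values are positive, and on the right the strongest are those among Polr1b, Nop56 and Gnl3, between Fbl and Wdr12 and between Npm1 and Nop58.

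Other genes of the pathway were counted in 5 lists, and the 3 genes given first for each list are those with the largest moderated t. The counts stand against 26.4% of all genes called higher with Myc and 16.9% called lower. Of 12 measured genes of RNA polymerase I transcription 8 rose with Myc in limma and 0 fell, with Polr1a, the largest subunit of the enzyme, at 0.42 ± 0.07, Taf1d at 0.29 ± 0.06 and Ubtf, the upstream binding factor, at 0.23 ± 0.04 (SE). Of 11 genes of small nucleolar ribonucleoproteins and their assembly 9 rose and 0 fell, with Nolc1 at 0.42 ± 0.07, Gar1 of the box H/ACA particles at 0.39 ± 0.05 and Nhp2 at 0.24 ± 0.05 (SE). Tcof1, which encodes treacle, was not called, at 0.03 ± 0.08 (SE). Of 36 genes of small subunit assembly 30 rose and 0 fell, with Nop14 at 0.50 ± 0.07, Ddx10 at 0.49 ± 0.06 and Krr1 at 0.38 ± 0.06 (SE).

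Of 38 genes of large subunit assembly 32 rose and 0 fell, with Tma16 at 0.58 ± 0.08, Nifk at 0.49 ± 0.07 and Rsl24d1 at 0.38 ± 0.06 (SE). Among the partners of Wdr12 in the PeBoW complex, Pes1 passed at 0.29 ± 0.07 (SE). Bop1 missed the threshold at 0.19 ± 0.08 (SE, limma adjusted p = 0.0567). Both slopes were positive, and the difference between them was not tested. Of 10 genes of the RNA exosome, the nuclease that trims the precursors, 7 rose and 0 fell, with Exosc5 at 0.55 ± 0.07, Exosc9 at 0.39 ± 0.06 and Exosc7 at 0.37 ± 0.06 (SE). Exosc8 and Exosc4 were not called, at -0.11 ± 0.06 and 0.01 ± 0.08 (SE). The medians of the slopes were 0.23, 0.26, 0.25, 0.33 and 0.32 for the lists in this order, against 0.03 over all genes. With the G2/M score held, 4 of 12, 5 of 11, 17 of 36, 22 of 38 and 6 of 10 genes rose with Myc and 0 fell in any list. In that fit 16% of all genes were called higher and 11.9% lower.

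**Figure D4:**
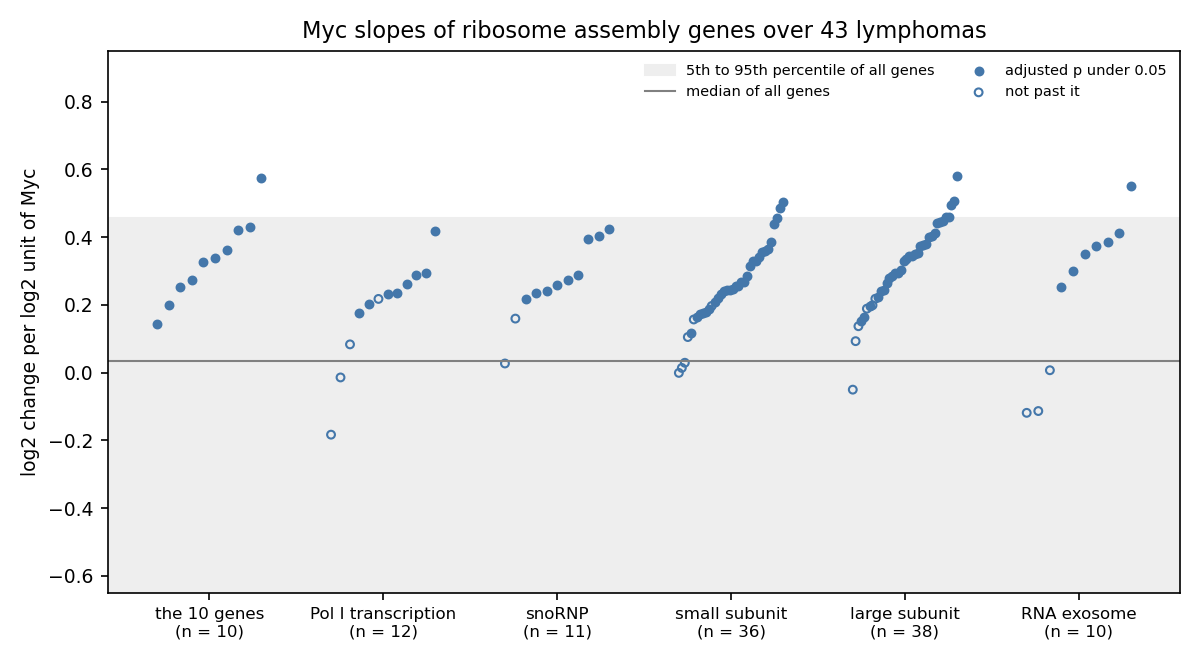
Slope on Myc (vertical axis, log2 per log2 unit, 43 lymphomas) of the 10 genes and of 5 lists of ribosome assembly genes; each circle is a gene, filled where its adjusted p was under 0.05, the grey band spans the 5th to the 95th percentile of all genes tested and the grey line is their median. The filled circles all lie above the line, and most circles of every list lie inside the band, whose top is at 0.46.

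The genes that went most closely with the mean of the 10 over the 43 lymphomas were Ddx10 (r = 0.923), Ftsj3 (0.912), Rcc2 (0.910), Exosc7 (0.904), Xpo5 (0.899), Zmynd19 (0.898), Lonp1 (0.888), Mrps22 (0.886), Exosc2 (0.880) and Wdr5 (0.880). Ddx10 is a helicase and Ftsj3 a methyltransferase of ribosome assembly, Exosc2 and Exosc7 are exosome subunits, and Lonp1 and Mrps22 belong to mitochondria. At the other end were Tmem176a (-0.902), Ier3 (-0.879), Tapbp (-0.873), Tmem176b (-0.870) and Id2 (-0.865), of which Tapbp encodes tapasin, a helper of antigen loading. For single genes the most alike gene outside the 10 was Patz1 for Ncl (0.844), Drg1 for Npm1 (0.826), 2010204K13Rik for Fbl (0.882), Ccdc22 for Nop56 (0.880) and Nol11 for Nop58 (0.874). It was Smn1 for Nop16 (0.793), 3110009E18Rik for Polr1b (0.873), Wdr36 for Wdr12 (0.878), Psme3 for Ddx21 (0.840) and Bap1 for Gnl3 (0.879). Nol11 and Wdr36 are small subunit assembly factors. These values are descriptions without a test.

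The single spleen was compared with the lymphomas, with the set as a term and the spread taken from the lymphomas. It was lower in all 10 genes, and the difference passed limma for 7 of 10, against 5.8% of all genes called lower and 7.6% called higher. Its value lay below each of the 7 lymphomas of its set in 9 of 10 genes, against 31% of all genes below and 19.6% above. The median difference was -0.94 over the 10 genes and -0.16 over all genes. The marker lists of red cells and neutrophils were high in this sample, as given above. Those of macrophages, plasma cells and stroma with endothelium lay 2.55, 3.14 and 2.99 above the lymphomas of the set and the T cell list at -1.05, and their part in the differences was not tested.

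Nop16 stood apart most, at 8.55 in the spleen against 9.81 to 10.36 in the lymphomas of the set, and the difference was -1.60 ± 0.40 (SE; adjusted p = 0.00479 by limma). Its gap below the lowest lymphoma was 1.26. That rank holds only for the probe sets used here. The second probe set of Nop16 differed by -0.57 ± 0.30, and a further probe set of Ncl by -1.75 ± 0.56 (SE). All 19 probe sets of the 10 genes had a negative difference. Fbl, at 12.02 against 12.65 to 13.41, differed by -1.12 ± 0.28 (SE; adjusted p = 0.00363), and Npm1, at 12.87 against 13.42 to 13.91, by -0.87 ± 0.17 (SE; adjusted p = 0.000203). Nop58 (11.38) differed by -0.97 ± 0.28, Ddx21 (9.23) by -1.10 ± 0.34, Nop56 (11.41) by -0.88 ± 0.31 and Ncl (12.94) by -0.53 ± 0.18 (SE), with adjusted p-values of 0.0161, 0.023, 0.0472 and 0.0487.

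The 3 genes that missed the threshold were Wdr12 at 9.74 (-1.11 ± 0.44), Polr1b at 8.84 (-0.91 ± 0.42) and Gnl3 at 11.39 (-0.40 ± 0.34, SE). Gnl3 was the only one of the 10 with a lymphoma of the set below the spleen, namely D163 at 11.35. Fits with the 7 lymphomas of the set alone called 3 of 10 (Npm1, Fbl and Nop16), against 2.7% of all genes called lower. The fit without a term for the set called 1 (Ddx21), against 0.471% of all genes, and turned the difference positive for Ncl (0.11) and Gnl3 (0.18). Calls near the threshold hung on single lymphomas, since the count was 5 without any one of D121, D133, D135, D143 or D161 and 8 without D163.

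**Figure D5:**
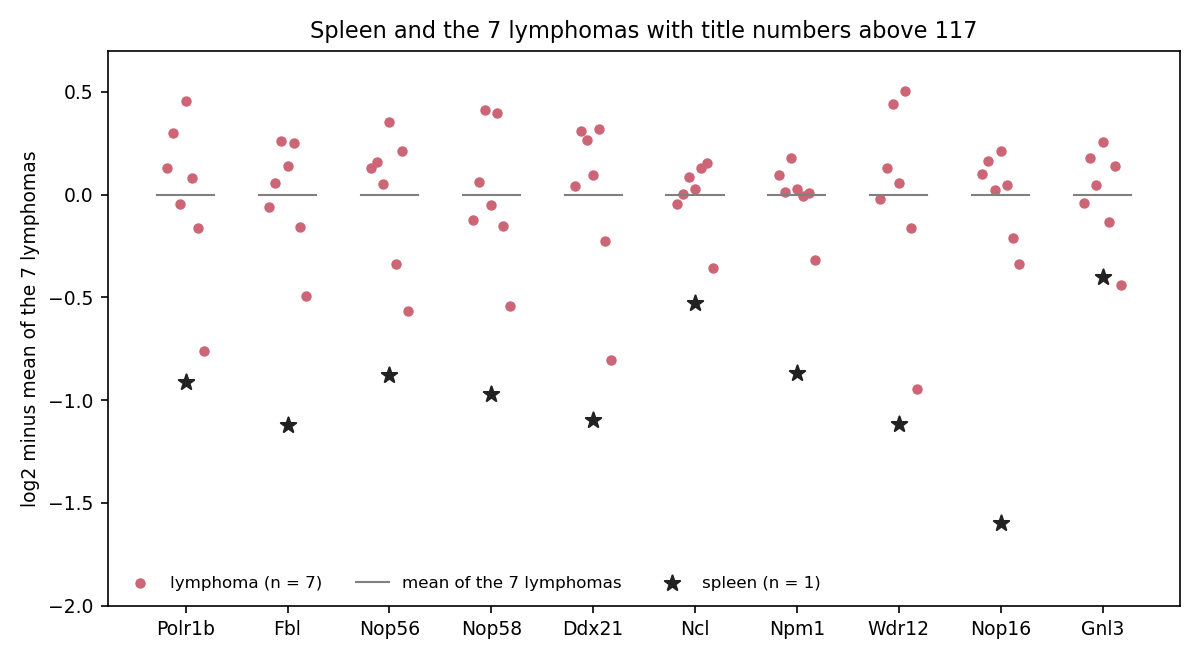
The 10 genes in the 7 lymphomas of the second set (red points) and in the spleen (star), as log2 minus the mean of the 7 lymphomas (grey line). The star lies below all red points in 9 genes, farthest for Nop16, and just above the lowest lymphoma for Gnl3.

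Myc was lower in the spleen as well, at 10.09 against a mean of 11.16 ± 0.62 (SD, n = 7) in the lymphomas of the set. With Myc held, 4 of 10 genes were still lower than the level that the lymphomas have at that Myc, against 3.07% of all genes called lower and 6.72% called higher. They were Nop16 (-1.31 ± 0.38), Fbl (-0.74 ± 0.18), Npm1 (-0.72 ± 0.15) and Nop58 (-0.61 ± 0.21, SE), with limma adjusted p-values of 0.0204, 0.00367, 0.000775 and 0.0491. With the 7 lymphomas of the set alone Nop58 was no longer called, leaving 3 of 10 (Npm1, Fbl and Nop16), against 0.953% of all genes. Gnl3 lay on the line, at -0.05 ± 0.29 (SE). The G2/M score of the spleen, 0.23 above the lymphomas of the set, was not low, and with that score held 9 of 10 genes were called lower, all but Gnl3, against 14.5% of all genes. For the pathway lists neither Myc nor the G2/M score was held. Their median spleen difference was -0.63 for RNA polymerase I transcription and -0.92 for small nucleolar ribonucleoproteins. It was -0.77 and -0.97 for small and large subunit assembly and -0.77 for the exosome, against -0.16 over all genes.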

How the data were processed

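Total RNA of 43 lymphomas and 1 spleen of Eµ-myc mice had been hybridised to Affymetrix mouse arrays. The authors deposited log2 signals, 1 per probe set, which, per the labels, they made with RMA in affy (versions not given in the sources used here). There were 22690 probe sets, of which 64 were controls, with signals from 2.36 to 14.93. Symbols came from the platform annotation: 20380 probe sets had 1 symbol, 691 several and 1555 none, and 20351 matched RefSeq. The probe set with the highest mean stood for a gene, and 8712 genes above the median of their set on at least 1 array were tested. A gene used as predictor was not tested on itself. RMA summarises probes across the arrays of a run and equalises their distributions, so a shift common to all genes of an array cannot be seen. The sets D34 to D117 and D121 to D168 differed in scale as if normalized separately, which the labels do not state.

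Slopes and differences were fitted with limma 3.58.1 in R 4.3.3 (eBayes with trend, two-sided, Benjamini-Hochberg over all genes, threshold 0.05), with the set as a term. Correlations used 100000 permutations within sets, or all 5040 orders for the 7 lymphomas of the second set. A score is the mean of a list, centred on the lymphomas of each set. On simulated data with 8710 genes, slopes on Myc of 0.5 and 1 residual SD per SD were called in 39% and 100% of genes, and changes of 1, 2 and 3 log2 units in 1 array in 37.31%, 65.67% and 86.36%. The number of arrays limits the precision. Besides the 10 genes, Myc, Mycn and Cdkn2a, the text names the 3 pathway genes of each list with the largest t on Myc, the 10 highest and 5 lowest correlates of the mean of the 10, and the closest gene of each; Tcof1, Pes1, Bop1, Exosc4 and Exosc8 were named after their values were seen. The genes, lists and tests were chosen with earlier results of these data known. Covariates with 1 score each were added after seeing the data. Alternatives concerned the set term, filter, probe set, scaling, eBayes settings, array weights, covariates and samples left out.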

Additional observations from a re-analysis of the deposited data

Results flagged for a closer look

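Among the 7 lymphomas D121 to D163, D163 lay far below the others for Ncl, at 13.10 with the next lymphoma at 13.42, and for Npm1, at 13.42 with the next at 13.73. The gaps were 0.6105 and 0.6218 of the whole range of the 7; Dixon's test at the 95% level marks both. Chance alone marks about 1 in 20 such groups, and the 11 groups looked at, the 10 genes and Myc, share the same lymphomas. For the other 8 genes D163 was also lowest, with gaps of 0.2303 (Nop16) to 0.541 (Wdr12) of the range, and for Myc the gap was 0.5422. The share of all genes lowest in D163 was not counted. Without D163 the Myc slope passed in 10 of 10 genes.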

How the results depend on the processing

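The count of 10 genes rising with Myc was the same without any one of the 43 lymphomas (10 to 10), without the set term, filter or intensity trend, with robust eBayes, equal medians, array weights, the 3' to 5' control difference or the mean of all probe sets, and over D34 to D117. It was 9 with quantile normalization, 8 without D46, D47, D59, D88 and D92, which were farthest on a cell type score, 7 without D88 and D163, 4 with the T cell and macrophage scores, 6 with the T cell score and 2 over D121 to D163 (Wdr12 and Ddx21, against 0.195% of all genes), where the permutation test called 0. Over all genes the share called higher was 22.5 to 27.4% without single lymphomas. It was 46.6% without the set term, 33.6% with equal medians and 20.1% without the filter, against 26.4% in the main fit. For the further fits with a count of 10 it was 22% (D34 to D117) to 28.4% (mean of all probe sets). With quantile normalization it was 25.5%, and without the lymphomas farthest on a cell type score 17.8%. No slope on Myc of the 10 genes changed sign in these fits. With the G2/M score held, the count of 7 became 4 with the T cell and macrophage scores, and 6 to 8 without single lymphomas. Counts for Cdkn2a, the bend and the slope difference were 0 in each alternative run.

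The spleen count of 7 was 5 to 8 without single lymphomas, against 4.86 to 8.83% of all genes, 5 without the filter or the intensity trend, 6 with quantile normalization, 9 with the G2/M score, 3 over D121 to D168 and 1 without the set term. Without the set term the difference turned positive for Ncl (0.11) and Gnl3 (0.18), and with Myc held for Ncl (0.28), Nop56 (0.074), Polr1b (0.15) and Gnl3 (0.40), with 1 of 10 genes lower instead of 4. With Myc held and over D121 to D168 only, 3 of 10 were lower (Npm1, Fbl and Nop16). The set term removes a shift between array scales that the fit without it leaves in. The share of all genes called lower also changed between these spleen fits, and it is given above for some of them only. It is missing for the fits without the filter or the intensity trend and with quantile normalization. The fit with Myc held and no set term lacks it too, so the counts of these fits have no background beside them. With 1 spleen its own spread is unknown, and the labels do not tell tissue from cell pellets. Signals of probe sets do not give the level of one gene against another.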
